A study of Drosophila melanogaster with 3 samples.

Results

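The genes described here are 10 members of epidermal growth factor (EGF) receptor and Raf signalling in Drosophila melanogaster, and the question is where the Hox protein Proboscipedia (pb) was recovered at them in the embryo. They were taken as named pathway genes, chosen with earlier results of these data known. Shares of all genes given beside theirs are therefore descriptions and not tests of chance. Grouped by role, they were the ligands spi and vn together with rho, and the kinases Egfr and Raf. The rest were the ETS factors pnt and aop, and the inhibitors aos, sty and kek1. A peak was assigned to a gene when its summit lay inside the gene body or when that gene had the nearest start site among protein-coding genes. By this rule 26 of 2740 thresholded summits fell to the 10 genes, out of 13945 protein-coding genes on the 6 chromosome arms that hold peaks.

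The measurements are chromatin immunoprecipitation followed by sequencing (ChIP-seq) with an antibody against GFP. The material was whole embryos of mixed sex aged 0 to 24 h, from 1 transgenic line of the strain pb-GFP in which pb is fused at its C terminus to GFP. There were 3 biological replicates of this single group, and the design holds no second condition. No library without the tag and no control was analysed here, so recovery that needs pb-GFP cannot be told apart from recovery that does not. A whole embryo mixes all tissues and a full day of stages, and the lists hold no expression values against which a tissue or the level of the fusion could be checked.

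In this pathway the ligand Spitz, released from its membrane-bound precursor by the protease Rhomboid, or the secreted ligand Vein activates the receptor, and the signal passes through Ras, the kinase Raf, MEK and the MAP kinase Rolled. The MAP kinase turns on the ETS activator Pointed and removes the ETS repressor Anterior open (also called Yan). Argos, Sprouty and Kekkon-1 are feedback inhibitors that act on the ligand, inside the cell and on the receptor, and in the embryo the pathway is known for patterning the ventral ectoderm and for tracheal and muscle development.

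Sequences under a selection of the summits are shown first, since the values below are ranks of such sites. The selection was not by strength alone. It holds Raf at rank 682 and pnt at rank 1706, and leaves out stronger Raf summits at ranks 137, 227 and 484. It therefore does not show how common a motif is, and shares over all summits are given below. Each is the 101 bases centred on a thresholded summit, read on the plus strand of the dm6 build (RefSeq Release 6 genome). Capitals mark matches, on either strand, to the motif letters searched other than GGAA: GAGAG for GAGA factor at Raf and pnt, CAGGTA for Zelda at Raf, and TGATNNAT for Hox proteins with a cofactor at pnt. A sequence with no capitals holds none of the motifs searched apart from GGAA. The 3 sites of Raf are the strongest intronic site at chrX:2297668-2297768, an intronic site without such a match at chrX:2300660-2300760, and a distal intronic site with the Zelda letters at chrX:2318504-2318604. The other sites are the strongest of spi at chr2L:19575708-19575808 in its promoter, of aos at chr3L:16480491-16480591 in an intron, of aop at chr2L:2163627-2163727 in an intron, and of pnt at chr3R:23326428-23326528 in an intron, together with the pnt promoter site at chr3R:23295480-23295580.
Raf, rank 43: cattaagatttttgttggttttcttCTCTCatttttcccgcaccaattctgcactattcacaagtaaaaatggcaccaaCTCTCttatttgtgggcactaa
Raf, rank 171: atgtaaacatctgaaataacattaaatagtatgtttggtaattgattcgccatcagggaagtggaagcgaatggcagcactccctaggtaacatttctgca
Raf, rank 682: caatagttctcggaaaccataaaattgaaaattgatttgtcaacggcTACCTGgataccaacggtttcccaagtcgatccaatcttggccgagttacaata
spi, rank 119: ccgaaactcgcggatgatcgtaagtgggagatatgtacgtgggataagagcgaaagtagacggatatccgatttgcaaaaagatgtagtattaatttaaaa
aos, rank 123: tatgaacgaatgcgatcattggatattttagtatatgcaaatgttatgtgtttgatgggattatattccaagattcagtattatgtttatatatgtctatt
aop, rank 285: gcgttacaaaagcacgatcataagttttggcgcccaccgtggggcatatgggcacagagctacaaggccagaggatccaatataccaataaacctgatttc
pnt, rank 405: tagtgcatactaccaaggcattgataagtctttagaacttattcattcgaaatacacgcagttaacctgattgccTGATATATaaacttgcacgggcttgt
pnt, rank 1706: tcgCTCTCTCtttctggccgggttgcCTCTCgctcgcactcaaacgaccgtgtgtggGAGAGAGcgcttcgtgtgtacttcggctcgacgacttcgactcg

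All values below are ranks of the authors' signal value within a list, where rank 1 is the strongest peak. The thresholded list holds 2740 peaks, which are the 2740 strongest of the 30000 in the combined list, and each replicate list also holds 30000 peaks and background regions. Peaks of different lists were matched when their summits lay within 100 bp. The deposited −log10 q of a peak has a ceiling in each library (3.38, 3.5 and 3.7 in replicates 1, 2 and 3), at which peaks cannot be ordered by q. The number of reads behind each library is not known, so the error of a rank is its spread over the 3 libraries.

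Of the 10 genes, 7 held a thresholded summit: spi, vn, Raf, pnt, aop, aos and sty. None was assigned to rho, Egfr or kek1. Across all protein-coding genes the same rule called 16.1%. The 10 genes were chosen with earlier results known, so this contrast was not tested against chance. The genes with summits are long: the median length of the 10 was 23027 bp, against 2166 bp over all genes, and 6 of them span at least 20 kb. Among all genes of at least 20 kb the rule called 45.5%, and among the pathway genes of that length it called 5 of 6, the exception being Egfr. Among shorter genes it called 13.8% of all and 2 of 4 here, spi and aos. With nearest start sites alone, 6 of the 10 genes had a summit against 14.7% of all genes, and the gene lost was vn. With gene bodies alone there were 7 of 10 against 9.02%.

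The summits were unevenly shared. Raf held 11, aop 7, pnt 3, spi 2, and vn, aos and sty 1 each, so that the kinases had 11 summits, all at Raf, the ETS factors 10, the ligands 3 and the inhibitors 2. Of all genes, 3.75% had 2 or more summits, as did 4 of the 10, and 1.31% had 3 or more, as did 3 of the 10. A count of at least 11 was reached by 4 genes of the genome, or 0.0287%: sbb with 13, and Raf, kirre and tara with 11 each. Per 10 kb of gene length, the number of assigned summits was 3.14 for aop, 2.27 for Raf and 2.12 for spi, followed by 0.754 for aos, 0.536 for pnt, 0.42 for sty and 0.309 for vn. Scaled by length, aop and spi thus stood near Raf, while the long genes pnt and vn fell behind. The aop value counts summits upstream of the gene, at ranks 976, 1417 and 1788, so it overstates the density within its body. All 11 Raf summits lay in the gene body, and the 2 spi peaks overlap.

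**Figure D1:**
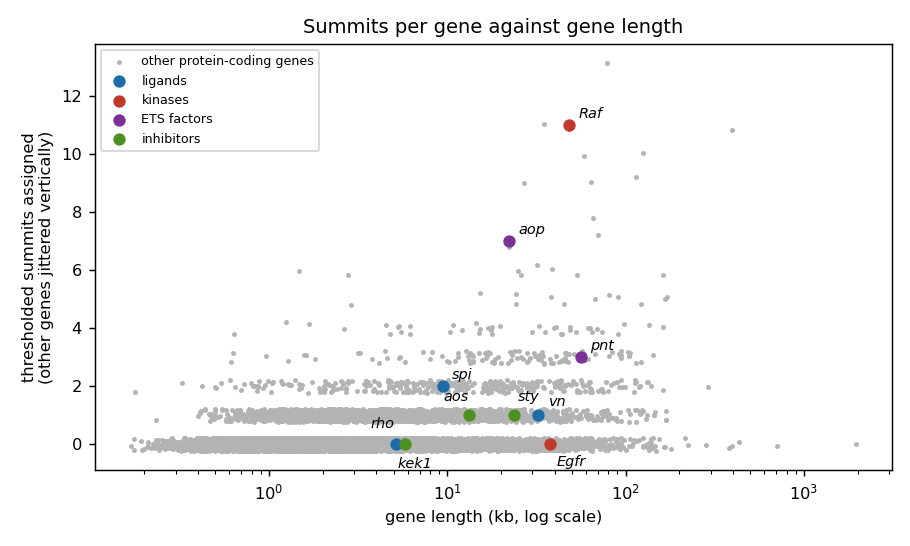
Thresholded summits assigned to each protein-coding gene (vertical axis, count) against gene length (horizontal axis, kb on a log scale); grey points are other genes, jittered vertically, and coloured points are the 10 pathway genes by role. Raf with 11 and aop with 7 summits lie in the upper part of the plot, whereas Egfr, also a long gene, has 0.

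The libraries gave like counts of genes. Among the 2740 strongest peaks of each library, 8 of the 10 genes had a peak in replicate 1, 7 in replicate 2 and 8 in replicate 3, against 16.3%, 15.7% and 15.8% of all genes. The absent genes were rho and Egfr in replicate 1, rho, Egfr and kek1 in replicate 2, and Egfr and kek1 in replicate 3. Egfr was thus missing from the top of every library, whereas rho and kek1 each reached it in 1 library. When the whole combined list with its background regions was taken, all 10 genes had a region, as did 71.1% of all genes, so presence in that list says little about a gene.

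Of the 26 summits, 23 (88.5%) were matched in all 3 libraries, against 88.4% of the whole thresholded list. The 3 without a match in 1 library were the sty promoter summit and the most distal upstream summit of aop, both missing from replicate 3, and the summit at the downstream start of Raf, missing from replicate 1. There were 16 (61.5%) among the 2740 strongest of every library against 46.7% of all summits, and 13 (50%) at the q ceiling of every library against 31.2%. Raf carried much of the first difference: without it, 7 of 15 summits (46.7%) were among the top of every library, the share of the whole list. At the q ceiling of every library there were 6 of the 15 (40%) without Raf, still above 31.2%. The median rank without Raf was 1417, against 917.5 with Raf and 1370.5 for the whole list.

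The 26 summits lay farther from start sites than the list as a whole. Promoters, meaning the 1000 bp on each side of a protein-coding start, held 9 (34.6%) against 63.2% of all summits, and introns held 15 (57.7%) against 24.3%. The other 2 (7.69%) were intergenic, both upstream of aop, against 11.0% of all. Within 200 bp of a start site there were 3 (11.5%) against 41.1%. The median distance to the nearest start site was 2760 bp, against 385 bp for all summits. Without Raf the other 15 summits held 46.7% in promoters and 40% in introns. The rule takes every summit inside these gene bodies, whose median length was 23027 bp against 2166 bp over all genes. Long genes offer more intron far from a start, and no like share was computed for summits in other long genes. How much of the difference follows from gene length was not tested.

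**Figure D2:**
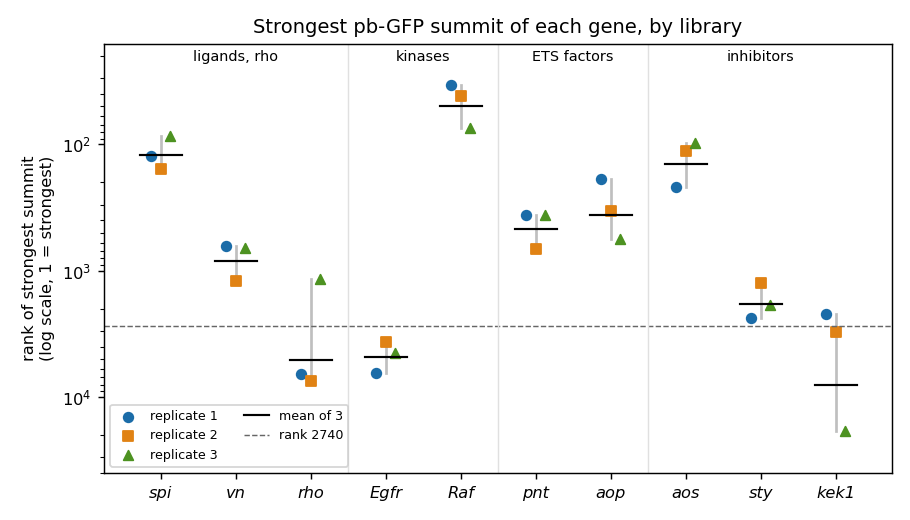
Rank of the strongest summit or region of each of the 10 genes in each library (vertical axis, log scale, inverted so that strong sites are at the top), grouped by role; symbols are the 3 libraries, black bars their mean, grey lines their range, and the dashed line is rank 2740. Raf, spi, aos, aop, pnt, vn and sty lie above the line in all 3 libraries, and Egfr lies below it in all 3.

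Among the ligand genes, spi encodes Spitz, the main ligand of the receptor in the embryo. Its strongest summit lay in a promoter, 171 bp upstream of a start site (chr2L:19575631-19575859), and ranked 123, 157 and 86 in replicates 1, 2 and 3 (mean 122 ± 35.5, SD, n = 3) and 119 in the thresholded list. The second summit, 376 bp upstream of the same start (chr2L:19575758-19576167), ranked 936, 1177 and 1230 (mean 1114.3 ± 157, SD, n = 3). The stronger site was above the weaker one in all 3 libraries, and the ranges did not overlap; the 2 deposited peaks overlap, so the sites are not independent. In the coding part of spi a further region stood at rank 4390 of the combined list, below the threshold.

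vn encodes Vein, a secreted ligand resembling the neuregulins. Its single thresholded summit (chr3L:5824043-5824452) lay in an intron 21416 bp downstream of the vn start and ranked 643, 1209 and 658 (mean 837 ± 323, SD, n = 3). The nearest start site was that of mad2, 11155 bp away, so the assignment to vn rests on the gene body. vn also holds the first region below the threshold, at rank 2741, which ranked 4687, 3176 and 4879 in the libraries. The summit nearest to the threshold from inside among the 10 genes was a Raf summit at rank 2729, which ranked 3721, 3876 and 4253. The library ranks of these neighbours overlapped.

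rho encodes Rhomboid, the protease that releases Spitz. Its strongest regions ranked 6635 and 7426 in replicates 1 and 2 and 1160 in replicate 3 (mean 5073.7 ± 3410, SD, n = 3), so replicate 3 stood apart. In replicate 3 the site lay at the rho promoter, 21 bp from the start, whereas in replicates 1 and 2 it lay 2763 and 1867 bp upstream. The promoter region of the combined list, at rank 3518, was matched at 6977, 28907 and 1160. A rho promoter peak is therefore strong in 1 library of 3.

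The 2 kinases lay at opposite ends. The receptor gene Egfr, which is on arm 2R, held no thresholded summit in its 37558 bp. Its strongest regions ranked 6411, 3647 and 4514 (mean 4857.3 ± 1410, SD, n = 3), all below the 2740 strongest. They were not 1 site: relative to the nearest start they lay at 916 bp upstream in replicate 1, and 5043 and 6741 bp downstream in replicates 2 and 3. In the combined list the best Egfr region ranked 4435 and was matched at 27766, 5216 and 5342.

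Raf encodes the serine/threonine kinase that passes the signal from Ras to MEK, and the gene occupies chrX:2295466-2343870 on the plus strand. Its strongest summit (chrX:2297574-2297866) lay in an intron 2252 bp downstream of the first start and ranked 34, 41 and 74 in replicates 1, 2 and 3 (mean 49.7 ± 21.4, SD, n = 3), and 43 in the thresholded list. The summit was placed within 8 bp of the same base in every library. It was the only summit of the 10 genes among the 100 strongest, which is 3.85% of the 26 summits against 3.65% of the whole list.

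Around Raf the summits formed a run. Starting 860 bp into the gene, 7 summits followed each other over 10236 bp, with gaps of 1392 to 2494 bp and a median gap of 1516.5 bp. In order along the gene they ranked 137, 43, 818, 171, 484, 227 and 1355 in the thresholded list. Of these 7, 5 were among the 500 strongest of the list, against 18.2% of all summits. At the q ceiling in all 3 libraries were 6, against 31.2% of all summits. The run is thus made of separate peaks, most of them strong. The weakest, at its downstream end, ranked 1355, near the median rank of the whole list (1370.5).

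The spread of the library ranks differed among the other summits in the run. The promoter summit at 860 bp (chrX:2296121-2296530) ranked 165, 127 and 197 (mean 163 ± 35, SD, n = 3). The summit at 5244 bp (chrX:2300596-2300807) ranked 178, 220 and 166 (mean 188 ± 28.4, SD, n = 3). The summit at 8602 bp ranked 315, 258 and 143 (mean 239 ± 87.6, SD, n = 3). These 3 overlapped in rank with each other but not with the summit at 2252 bp, which was stronger in every library. The summits at 6775 and 11096 bp ranked 385, 849 and 418, and 952, 1382 and 2017. The summit at 3742 bp varied more, with ranks of 1479, 416 and 1639 (mean 1178 ± 665, SD, n = 3), so that replicate 2 stood above the other libraries there.

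Farther along the gene, 4 more summits lay in its body. At 23088 bp a summit nearest to the start of CG14050 ranked 608, 511 and 1035, and at 26596 bp the weakest, also nearest to CG14050, ranked 3721, 3876 and 4253. At 34073 bp a summit nearest to CG2854 ranked 1237, 1321 and 1772. The last lay at the downstream Raf start site, 46 bp upstream of it, and ranked 1902 and 1623 in replicates 2 and 3 with no match in replicate 1. CG14050, CG2854 and Ilp6, an insulin-like peptide gene, lie within the Raf body, so the 3 intronic summits may belong to either gene by position. In the 25 kb to either side (chrX:2270466-2368870) there were 2 further summits, at the promoters of CG2865 (394, 883 and 286) and of CG2924 (447, 2178 and 20908), the latter at the very edge of the window and weak in replicate 3.

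**Figure D3:**
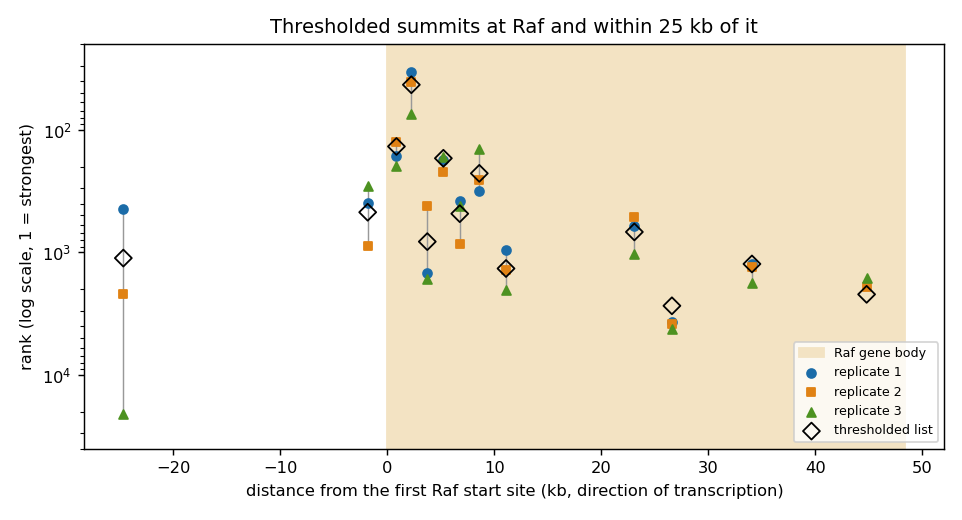
Rank of each thresholded summit at Raf and within 25 kb (vertical axis, log scale, inverted so that strong sites are at the top) against distance from the first Raf start in the direction of transcription (kb); shading is the gene body, filled symbols are the 3 libraries, open diamonds the thresholded list. A run of 7 summits lies between 860 and 11096 bp, and 4 more are spread over the rest of the gene.

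The window of the Raf body and 25 kb to either side thus held 13 thresholded summits. Among the 2740 strongest peaks of each library it held 11, 13 and 14 (mean 12.7 ± 1.53, SD, n = 3). As many as 13 in the like window were found for 5 genes of the genome, or 0.0359%, and 2 of these, Raf and aop, are pathway genes. A stretch of 15 kb that opens at the CG2865 promoter and runs into Raf held 8 summits, the most found in any stretch of that length; stretches at CHES-1-like and tara held as many. With 5 kb the count at Raf was 4 against a highest of 6 elsewhere, with 20 kb it was 8 against 9, and with 25 kb 9 against 11. Raf therefore shared the highest count of the list for 10 kb (6 summits) and 15 kb, and was below it for 5, 20 and 25 kb. Over 10236 bp, the span of the run itself, the highest count was 7, and only 1 summit, at Raf, opened such a stretch. That length was taken from the run, so the count is no independent support. For 10 kb, 12 of 2740 summits (0.438%) opened a stretch with as many, including ones nearest to CG42808, CHES-1-like, Pgk, msn, shn and tara.

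Of the ETS factors, aop encodes the repressor Yan. Its strongest summit (chr2L:2163573-2163739) lay in an intron, 2150 bp upstream of the internal start site, and ranked 189, 334 and 557 (mean 360 ± 185, SD, n = 3). A second intronic summit 3399 bp upstream of that start ranked 2957, 1238 and 3555. The other 5 summits gathered at the first start: at 914 and 82 bp inside the gene, and at 826, 1481 and 4250 bp upstream of it. The strongest of these 5, at 1481 bp upstream, ranked 1450, 776 and 685 (mean 970 ± 418, SD, n = 3), and the most distal ranked 1682 and 1749 with no match in replicate 3. The intronic site was above all 5 in every library.

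The aop window of the gene and 25 kb to either side held 14 summits, and 12, 14 and 12 of the 2740 strongest peaks of the libraries (mean 12.7 ± 1.15, SD, n = 3). Only 7 were assigned to aop. The other 7 lay nearest to Tbcd, CG10874, COX7AL2 or CG31668, and the CG31668 summit, 23617 bp upstream of aop, was the strongest of the 14 in the thresholded list, with ranks of 327, 120 and 140; in replicate 1 the aop intronic summit, at 189, ranked above it. The window count at aop is thus shared with its neighbours, and the window of COX7AL2, a neighbour of aop, itself held 13. At Raf 11 of 13 were assigned to the gene, all by its body. By nearest start alone, 8 of the 13 fell to Raf and 7 of the 14 to aop.

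pnt encodes the ETS activator Pointed, from a gene of 55937 bp with 3 start sites. Its strongest summit (chr3R:23326444-23326557) lay in an intron 12163 bp upstream of the nearest pnt start and ranked 360, 674 and 361 (mean 465 ± 181, SD, n = 3). A promoter summit 292 bp upstream of another start ranked 2266, 1383 and 4339 (mean 2662.7 ± 1520, SD, n = 3). An intronic summit 14665 bp inside the gene ranked 2170, 2609 and 6733 (mean 3837.3 ± 2520, SD, n = 3). The strongest site was above the others in all 3 libraries, and replicate 3 ranked the 2 weaker ones below its 2740 strongest peaks.

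Of the inhibitors, aos encodes Argos, the secreted protein that binds Spitz. Its summit (chr3L:16480434-16480695) lay in an intron 3109 bp downstream of the start and ranked 219, 113 and 98 (mean 143 ± 66, SD, n = 3). The ranks of aos and of the spi promoter site overlapped, so the 2 sites could not be ordered. At the aos promoter, 247 bp upstream of the start, a region lay just below the threshold at rank 2807, with ranks of 1569 and 9856 in replicates 2 and 3 and no match in replicate 1.

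sty encodes Sprouty, an intracellular antagonist of receptor tyrosine kinase signalling. Its summit 890 bp upstream of a start site (chr3L:3418646-3419055) ranked 1491 in the thresholded list, and 2350 and 1251 in replicates 1 and 2. In replicate 3 the strongest sty peak ranked 1875 and lay 1009 bp upstream, outside the matching distance. A peak at this place was thus among the 2740 strongest of each library, at slightly different positions.

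kek1 encodes Kekkon-1, a transmembrane protein that binds the receptor. Its strongest regions ranked 2222, 3040 and 18677 (mean 7979.7 ± 9270, SD, n = 3). In replicates 1 and 2 they lay at the promoter, and in replicate 3 at an intergenic site 8300 bp upstream. The promoter region ranked 3759 in the combined list and 21531 in replicate 3. The kek1 promoter was thus near the threshold in 2 libraries and far below it in replicate 3, the library in which the rho promoter ranked highest.

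**Figure D4:**
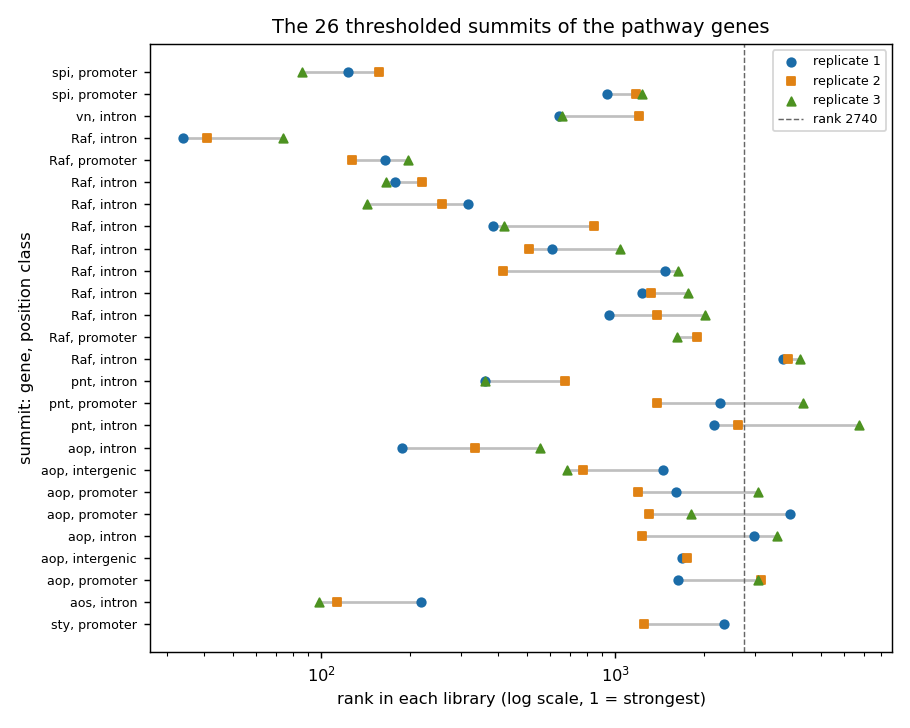
Rank in each library (horizontal axis, log scale) of the 26 thresholded summits, each named by gene and position class and sorted by gene and strength; symbols are the 3 libraries, grey lines their range, and the dashed line is rank 2740. The leading summits of Raf, spi, aos, aop, pnt and vn stay left of the line in every library, and both weaker pnt summits and 4 of the 6 weaker aop summits lie right of it in at least 1 library.

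The role classes were compared by the median, over the genes of a class, of the rank of each gene's strongest site in a library. The ETS factors had 274.5, 504 and 459 in replicates 1, 2 and 3 (mean 412.5 ± 122, SD, n = 3). The ligands with rho had 643, 1209 and 658 (mean 836.7 ± 323, SD, n = 3), which are the ranks of vn, the middle gene of the class. In every library spi was stronger than both ETS factors, and vn and rho were weaker than both. The inhibitors had 2222, 1251 and 1875 (mean 1782.7 ± 492, SD, n = 3), and the kinases 3222.5, 1844 and 2294 (mean 2453.5 ± 703, SD, n = 3). The order of the 4 classes was the same in all 3 libraries, and the ranges of the ETS factors and the ligands did not overlap. That separation rested on rho, which has no thresholded summit: with rho left out, the difference of ligands minus ETS factors fell from 424.2 to 66.8 ranks (exact 2-sided permutation p = 0.5), and in replicate 3 the ligands were the stronger class.

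In all 6 pairs the difference had 1 sign in 3 of 3 libraries, and the exact 2-sided sign-flip permutation test gave p = 0.25 for each (0.25 after Benjamini-Hochberg adjustment over 6 pairs), which is the smallest value that 3 libraries allow. No class difference can therefore pass a threshold of 0.05 in this design. The kinase median joins Raf at 34 to 74 with Egfr at 3647 to 6411, so it describes neither gene, and 3 of the 6 directions turned under another summary or assignment: ligands against kinases to 0.6 with the mean of log2 rank and to 739.5 with nearest start sites alone, kinases against inhibitors to -1.17 with the mean of log2 rank, and ligands against inhibitors to 1410.3 with nearest start sites alone. A positive value means that the class named first ranked weaker.

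The letters of 8 motifs were searched on both strands within 100 bp of each summit. GGAA, the core bound by ETS factors such as Pointed and Yan, was present at 21 of 26 summits (80.8%) against 75.8% of all thresholded summits, and the longer ETS form CCGGAA at 0 against 5.99%. The Hox letters TAATTA were at 3 (11.5%) against 12.3%, and TGATNNAT, a form for Hox proteins with a cofactor, at 2 (7.69%) against 10.9%. Apart from CCGGAA, these shares were near those of the whole list, and a share of 5.99% leaves few matches to be found among 26 summits. A smaller part of the 26 lay in promoters than of the whole list (34.6% against 63.2%), and no share matched by position was computed for any motif. TATCGATA, bound by DREF, was at 0 against 4.42%, and the E-box CAGCTG at 3 (11.5%) against 11.0%. GAGAG, bound by GAGA factor, was at 12 (46.2%) against 28.9%, and at 4 of the 7 summits of the Raf run. CAGGTA, bound by the early embryonic factor Zelda, was at 4 (15.4%) against 4.31%, and all 4 were Raf summits, at ranks 43, 137, 682 and 2201.

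The sequences shown above hold some of these matches. The strongest Raf site has GAGAG letters on the minus strand on both flanks of the summit, and the pnt promoter site is dense in GA repeats and has a GC content of 60.4%. The aos site, at 26.7% GC, and the spi promoter site have none of the capitalised letters in their 101 bases. Narrowing the window to 50 bp lowered the counts to 13 for GGAA, 5 for GAGAG, 2 for CAGGTA, 1 for CAGCTG and 0 for TAATTA. A match is a description of the letters and not a measured binding site.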

How the data were processed

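Peak lists on dm6 from 3 replicate libraries were used. Per the deposited notes, a replicate list derives from the alignments of its own library and 1 further file, and the combined list from all 3 libraries; the thresholded list came from these by irreproducible discovery rate. For the aligner and the peak caller, names and versions were not given in the sources used here. The authors deposited for each peak a signal value of unstated statistic, used as ranks within a list, and a −log10 q. The dm3 lists, reads and control were not used here.

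Summits were assigned with the Ensembl release 115 annotation, with lengths and starts of protein-coding genes. Classes of genes were compared by an exact 2-sided sign-flip permutation test over libraries, adjusted by Benjamini-Hochberg, and the scripts were tested on simulated data (Python 3.11.15, pandas 2.3.3, NumPy 2.4.6, SciPy 1.17.1). The genes, gene lists and tests were chosen with earlier results of these data known. Named were the 10 genes, the genes nearest to Raf cluster summits or to summits inside a named gene, and the 6 and 1 strongest of the 2 further lists; the other genes of dense windows and those without a summit were named after their values were seen. Alternatives covered the assignment, matching distance, windows, motif windows, list depth and each replicate left out. The comparison of genes of at least 20 kb with shorter ones was added after seeing the data.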

Additional observations from a re-analysis of the deposited data

How the results depend on the processing

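Under the alternatives tried, 6 or 7 of the 10 genes kept a thresholded summit. The number of summits assigned, 26, moved to 16 with nearest start sites within 5000 bp and to 16 among the 1370 strongest peaks, and ranged from 16 to 21 with each replicate left out. Leaving out replicate 2 gave the 16, and sty lost its summit without replicate 1 or 2; these lists hold 1619, 1454 and 1624 peaks, and the omitted replicate remained part of the combined list. The Raf window held 10 to 13 summits under the alternatives. Of the role differences in rank, ligands minus kinases turned to 0.6 (mean log2 rank) and 739.5 (nearest start sites), kinases minus inhibitors to -1.17 (mean log2 rank), and ligands minus inhibitors to 1410.3 (nearest start sites); the cause was not tested. Of 96 alternative values, 84 kept their direction or stayed within the limit set for them, 8 moved and 4 reversed. Some of the 84 could not have changed. Each role difference had 1 sign in all 3 libraries, so its mean kept that sign whichever replicate was left out. Pairs without the ligands do not depend on rho, and leaving out a replicate cannot lower the number of summits matched in every library. The tally is therefore not a measure of robustness. With rho left out, ligands minus ETS factors fell from 424.2 to 66.8. Read depth is unknown, so the counting error of a rank cannot be given, and the exact permutation test over 3 libraries cannot reach 0.05. No paired analysis was possible because the libraries form 1 group.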

Other observations

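Other genes of the pathway were read from a list of 36, of which 35 matched the annotation (Soc-2 did not, and Gap1 was read as RasGAP1). A thresholded summit was assigned to 17 of the 35 (48.6%), against 16.1% of all protein-coding genes, with 26 summits in all. By length this was 5 of 8 genes of at least 20 kb, against 45.5% of all genes that long, and 12 of 27 shorter ones, against 13.8%. The strongest was at Shc, which encodes an adaptor of receptor tyrosine kinases: a summit 111 bp upstream of its start ranked 14, 24 and 63 in replicates 1, 2 and 3. A start of Atat lies within 1000 bp of that summit too. RasGAP1, a negative regulator of Ras, held 3 summits, the strongest at 181, 100 and 194. S encodes Star, which carries Spitz out of the endoplasmic reticulum, and also held 3, the strongest at 160, 194 and 443 in an intron. The receptor tyrosine phosphatase gene Ptp4E had a promoter summit at 242, 190 and 588. ebi, near a start of AP-2alpha, had one at 800, 346 and 280. The summit assigned to the adaptor gene drk, at 389, 343 and 718, lay at the promoter of mars. No summit was assigned to the MAP kinase gene rl, the MEK gene Dsor1 or Sos, while Ras85D had 1 at its promoter (903, 1239 and 1891).

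Of 7 other receptor tyrosine kinase genes, 1 (14.3%) had a thresholded summit, a share near the 16.1% of all genes, and tor, sev, htl, btl, Pvr and Alk had none. InR, the insulin receptor gene and the longest of the 7 at 49074 bp, held 4. Its strongest, in an intron 5524 bp downstream of the start, ranked 229, 537 and 317.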
